A study of Mus musculus with 10 samples.

Results

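The microRNA miR-21a was followed through both of its arms, miR-21a-5p and miR-21a-3p, in small RNA sequencing of mouse splenic B-cells. Its members were the 2 rows of the count table that are of the microRNA class and carry the names mmu-miR-21a-5p and mmu-miR-21a-3p. They are 2 of the 1302 mature microRNA rows, which with 713 hairpin transcript rows make up the 2015 rows of the microRNA class, in a table of 6968 small RNA features. Cells were CD43- splenocytes, a fraction in which most cells are resting B-cells, of 3 genotypes in a 129 background, taken from adult mice of both sexes. The wt mice carried no deletion, the 3'RR-deficient mice lacked the enhancer cluster downstream of the immunoglobulin heavy chain genes, named the 3' regulatory region, and the Eµ-deficient mice lacked the intronic enhancer of the same locus (EµMAR deletion). Per the labels the cells of each genotype were cultured for 2 days in medium alone (NS, non-stimulated) or with lipopolysaccharide (LPS), a bacterial component that activates B-cells through Toll-like receptor 4. The sample labels give the LPS concentration as 5 µg/ml, while the protocol text has another unit. The study's methods instead speak of RNA from before stimulation, and if the NS cells were in fact uncultured, the effect of culture cannot be told apart from that of LPS. There were 2 libraries in each of the groups wt NS, wt LPS, 3'RR-deficient NS and 3'RR-deficient LPS, and 1 library in each Eµ-deficient group. A library was made from the pooled material of 2 mice, so the spread between replicates is that between pools. No source used here names a promoter or Cre for these deletions, which are taken as present in all cells of the mice.

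MicroRNAs are cut from a hairpin precursor, whose 2 arms each give a strand of about the same length. Usually one strand, the guide, is loaded into an Argonaute protein and kept, while the other, the passenger, is mostly degraded. The guide pairs with messenger RNAs through its seed (bases 2 to 8), which lowers their stability and translation. In miR-21 the 5p arm is the guide. It is known for its rise in activated lymphocytes, for its induction by STAT3 and AP-1, and for repressing Pdcd4, an inhibitor of translation.

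The mature sequences are shown because the arms differ in seed and base composition, and because mouse has a pair of related microRNAs whose reads could be confused with miR-21a-5p. Capitals mark the seed, and the sequences are those of RefSeq for GRCm38.p6, written 5′ to 3′.
miR-21a-5p: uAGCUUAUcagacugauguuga
miR-21a-3p: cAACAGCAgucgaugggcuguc
miR-21b: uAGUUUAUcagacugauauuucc
miR-21c: uAGCUUAUcagacugguacaa
The arms shared no seed, and their GC content was 36.4% for miR-21a-5p and 59.1% for miR-21a-3p. Among 1679 mature mouse sequences of that reference, 1 other, miR-21c, had the seed of miR-21a-5p, and 0 others had that of miR-21a-3p. Against miR-21a-5p, with positions counted from 1 at its 5′ end and its base written first, miR-21b differed at 4 of 22 positions (C4U, G18A, G21U and A22C). In miR-21c 5 of 21 positions differed (A16G, G18A, U19C, U20A and G21A).

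On GRCm38.p6 miR-21a-5p lay at chr11:86584120-86584141 and miR-21a-3p at chr11:86584082-86584103, both on the minus strand. Their hairpin, Mir21a (ENSMUST00000083521), spanned chr11:86584067-86584158, 92 bases, with miR-21a-5p starting at its base 18 and miR-21a-3p at its base 56. In the GENCODE annotation the hairpin was inside an exon of Vmp1, a gene of autophagosome formation on the same strand (transcript ENSMUST00000018315.9, exon 86583865 to 86585451). That part of the exon is annotated as untranslated, so the hairpin lies in the 3' UTR of Vmp1.

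The libraries held between 3482540.0 and 18144016 counts, of which the microRNA class took 51.4% to 82.1%. The second NS libraries of wt and of 3'RR-deficient mice stood apart. They were the shallowest (3482540.0 and 3756662 counts), and the mean GC content of their mature microRNA counts was 44.5% and 44.2%, against 39.4% to 41.3% in the other 8 libraries. Across 720 microRNA features their departures from the first libraries correlated with r = 0.66 between both genotypes. The tests of both arms between conditions and between wt and 3'RR-deficient cells are also given without both of them, a choice made after the data were seen.

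miR-21a-5p was among the most abundant microRNAs of these cells and its share of the microRNA counts rose with LPS. In wt NS it took 8.51% of the microRNA counts in replicate 1 and 1.02% in replicate 2, and in wt LPS 24.4% and 19.4%. The share in 3'RR-deficient cells was 7.56% and 1.86% in the NS replicates 1 and 2, and 18.2% and 34.7% in the LPS replicates. In Eµ-deficient cells it was 6.17% (Wilson 95% confidence interval 6.16 to 6.19) in NS and 15.5% (15.46 to 15.51) with LPS. Every LPS library was above every NS library, and the lowest shares were those of the second NS libraries. In counts scaled between libraries, 14.2% of 720 microRNA features had all LPS above all NS libraries. The mean share of miR-21a-5p over the libraries of a condition was 22.4% ± 7.58 (SD, n = 5) with LPS and 5.02% ± 3.39 (SD, n = 5) in NS. The difference of 17.4 percentage points had p = 0.0278 in an exact permutation test (two-sided, condition labels exchanged within genotype), the smallest p that its 72 arrangements allow. It no longer passed without either 3'RR-deficient NS library. Without either Eµ-deficient library it could not pass, since the smallest p left is 0.0556. Without both second NS libraries the difference was 15.0 points, and the exact permutation test gave p = 0.111, where the smallest p that the 8 libraries left allow is 0.0556, so that no difference could pass.

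**Figure D1:**
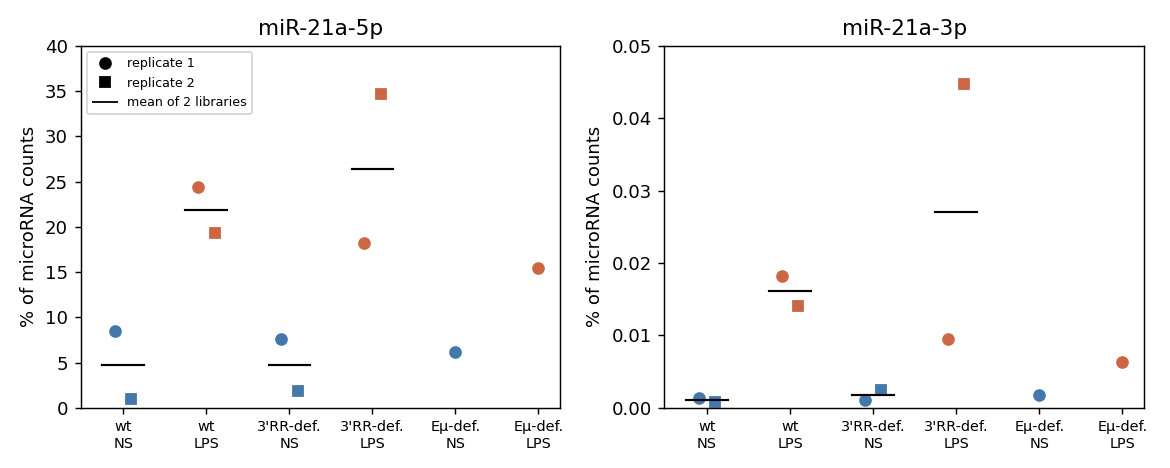
Share of miR-21a-5p in the microRNA counts of each library in % (left) and share of miR-21a-3p, also in % but on an axis of its own (right), by genotype (def., deficient) and condition. Circles are replicate 1, squares replicate 2, and lines the mean of 2 libraries. For both arms the 5 LPS libraries lay above the 5 NS libraries, as 14.2% of 720 microRNA features did in scaled counts.

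With LPS miR-21a-5p was the first of all mature microRNAs in all 5 libraries. Its lead over the next was 2.35-fold over miR-146a-5p and 3.17-fold over let-7f-5p in the wt LPS replicates 1 and 2. In LPS libraries of 3'RR-deficient mice it was 2.58-fold over miR-92a-3p and 6.94-fold over miR-142a-5p, and in Eµ-deficient LPS 1.25-fold over miR-155-5p. In NS the rank varied: second in wt replicate 1, behind miR-142a-5p (12.8% of microRNA counts), first in 3'RR-deficient replicate 1, just above miR-26a-5p (7.35%), and rank 5 in Eµ-deficient cells. In the second NS libraries it was at rank 19 in wt and rank 16 in 3'RR-deficient cells, between microRNAs with 1.04% and 1.01% and with 1.99% and 1.68% of the counts. A single one of the 5 NS libraries thus had miR-21a-5p in first place.

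The same question, whether miR-21a responds to LPS, was put to levels in CPM, counts of the microRNA class scaled to a common library size with TMM factors, which is less sensitive to a few very abundant features than a share. For miR-21a-5p the wt NS libraries had 118186 and 7539 CPM and the wt LPS libraries 210982 and 243652 CPM. The 3'RR-deficient NS libraries had 96317 and 13978 CPM and the LPS libraries 173466 and 494511 CPM. The Eµ-deficient libraries had 52007 CPM in NS and 126416 CPM with LPS. The groups did not overlap, but only narrowly: the lowest LPS library, Eµ-deficient, was 1.07 times the highest NS library, wt replicate 1. Of the 720 features tested, 14.2% had all 5 LPS libraries above all 5 NS libraries.

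In the edgeR quasi-likelihood test with Benjamini-Hochberg adjustment, the log2 difference of miR-21a-5p with LPS was 1.98 in wt (SE 1.23, adjusted p 0.368) and 2.45 in 3'RR-deficient cells (SE 1.26, adjusted p 0.323). Over both genotypes together it was 2.22 (SE 0.81, 95% interval 0.43 to 4.0), with an unadjusted p of 0.0195 and an edgeR adjusted p of 0.0723, short of the threshold of 0.05. It passed in 9 of 13 other ways of fitting the data, with values between 1.25 and 2.97. Those 9 include fits with the replicate number as a block, which was not taken as a pairing. They also include the fit without both second NS libraries, chosen after the data were seen. The main fit over both genotypes called 21.8% of the 720 features, 95 of them higher (13.2%) and 62 lower (8.61%). The fits within wt and within 3'RR-deficient cells called 0.694% and 0.972%. Its 157 calls dropped to 75 and 71 when the wt LPS replicates 1 and 2 were left out in turn, and to 98 and 84 when this was done for those of 3'RR-deficient mice. The size of the miR-21a-5p difference was unlike between the NS replicates. Between libraries of the same number LPS was 1.79-fold and 1.80-fold above NS for replicate 1 of wt and of 3'RR-deficient cells, and 32.3-fold and 35.4-fold above it for replicate 2. The Eµ-deficient LPS library was 2.43-fold above its NS library, with no replicate.

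Leaving out single libraries moved the miR-21a-5p value within a genotype. In wt it was 4.58 without NS replicate 1 and 1.01 without NS replicate 2. In 3'RR-deficient cells it was 4.25 without NS replicate 1, 1.54 without NS replicate 2 and 1.77 without LPS replicate 2. Each of these fits leaves 1 library in a group compared, so that the spread comes from the other groups and no p is given. Over both genotypes edgeR called it without wt NS replicate 1 (3.23, adjusted p 0.0147) and without 3'RR-deficient NS replicate 1 (2.72, adjusted p 0.0492). Without both second NS libraries the value over both genotypes was smaller but passed, at 1.25 (edgeR adjusted p 0.0375) in a fit that called 26.3% of 824 features. It was then 1.02 in wt and 1.49 in 3'RR-deficient cells, each with 1 NS library left.

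miR-21a-3p, the passenger strand, was rare, but its level rose 17.2-fold with LPS over both genotypes. Its counts in wt were 168 and 17 in the NS replicates 1 and 2, and 757 and 1177 in the LPS replicates. In 3'RR-deficient cells they were 101 and 61 in NS and 407 and 4711 with LPS, and in Eµ-deficient cells 144 and 592. With 17 counts, wt NS replicate 2 had the widest relative counting error, a share of microRNA counts of 0.000764% with a Wilson 95% interval of 0.000477 to 0.00122. In order of abundance miR-21a-3p stood between rank 240 and rank 331 in the NS libraries and between rank 92 and rank 194 with LPS.

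On the CPM scale miR-21a-3p was at 18.9 and 5.66 in wt NS, against 157.7 and 177.3 in wt LPS. The 3'RR-deficient libraries were at 13.3 and 18.1 CPM in NS, against 90.02 and 638.7 CPM with LPS. In Eµ-deficient cells it was at 14.9 CPM in NS and 51.8 CPM with LPS. All LPS libraries were above all NS libraries, as in 14.2% of the 720 features, the lowest LPS library being 2.75 times the highest NS library. The NS libraries spread over 3.33-fold where those of miR-21a-5p spread over 15.7-fold. With LPS the order was the other way, 12.3-fold for miR-21a-3p and 3.91-fold for miR-21a-5p.

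The log2 difference of miR-21a-3p over both genotypes was 4.10 (SE 0.64, 95% interval 2.70 to 5.50) and was called by edgeR (adjusted p 0.00261). Ordered from the highest increase down, it was at rank 32 of the 720 features. Within wt it was 3.84 (SE 0.95, edgeR adjusted p 0.0831) and within 3'RR-deficient cells 4.37 (SE 0.98, edgeR adjusted p 0.0769), neither past the threshold. Between libraries of the same number the LPS level was 8.36-fold and 31.3-fold above NS in wt, 6.75-fold and 35.4-fold in 3'RR-deficient cells and 3.47-fold in Eµ-deficient cells. Its share of microRNA counts was 0.0186% ± 0.0153 (SD, n = 5) with LPS and 0.00147% ± 0.000644 (SD, n = 5) in NS, with p = 0.0278 in the exact permutation test, again the smallest possible. Without both second NS libraries that share difference had an exact permutation p of 0.222, again with 0.0556 as the smallest possible. It also did not pass without either 3'RR-deficient NS library or either Eµ-deficient library, and for the Eµ-deficient ones it could not.

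The call of miR-21a-3p over both genotypes held in each of the 8 fits that left out 1 library, with 3.26 (adjusted p 0.00695) as its lowest value, without 3'RR-deficient LPS replicate 2. The calls within a genotype depended on single libraries. In wt edgeR called it without wt NS replicate 1 (4.55, adjusted p 0.0448) and without the 3'RR-deficient NS replicate 1, NS replicate 2 or LPS replicate 1 (adjusted p 0.0118, 0.0338 and 0.0343), and it was at 3.21 without wt NS replicate 2. In 3'RR-deficient cells edgeR called it without LPS replicate 1 (5.17, adjusted p 0.00949) and without 3'RR-deficient NS replicate 1 or wt NS replicate 1 or 2 (adjusted p 0.0441, 0.0205 and 0.0293), and it was at 2.53 (adjusted p 0.511) without LPS replicate 2. Without both second NS libraries edgeR called it in wt (3.23, adjusted p 0.0445), in 3'RR-deficient cells (4.43, adjusted p 0.0289) and over both (3.78, adjusted p 0.000927), in fits that called 9.59%, 6.07% and 26.3% of 824 features.

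The hairpin row of Mir21a holds reads assigned to the precursor and not to a mature arm, by a rule not given in the sources used here. Its counts were 431 and 59 in wt NS and 869 and 1406 in wt LPS. The 3'RR-deficient NS libraries had 282 and 117 and the LPS libraries 890.0 and 2603, and the Eµ-deficient libraries 353 and 1942. On the CPM scale the NS libraries ranged from 19.6 to 48.4 (median 36.6) and the LPS libraries from 170.0 to 352.9 (median 196.9). The row had a log2 difference of 2.72 over both genotypes (SE 0.43, edgeR adjusted p 0.00261), 2.60 in wt (adjusted p 0.0833) and 2.84 in 3'RR-deficient cells (adjusted p 0.0821). Its lowest LPS library was 3.51 times its highest NS library, where 14.2% of the 720 features had all LPS above all NS libraries. Its NS spread of 2.46-fold was below those of both arms. Of the counts assigned to the locus, miR-21a-5p took 99.6% to 99.9% in every library. Over the 10 libraries the log2 CPM of the arms correlated with r = 0.85, and with the hairpin row r was 0.87 for miR-21a-5p and 0.96 for miR-21a-3p. These 3 rows share libraries and scaling, so no p is given.

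**Figure D2:**
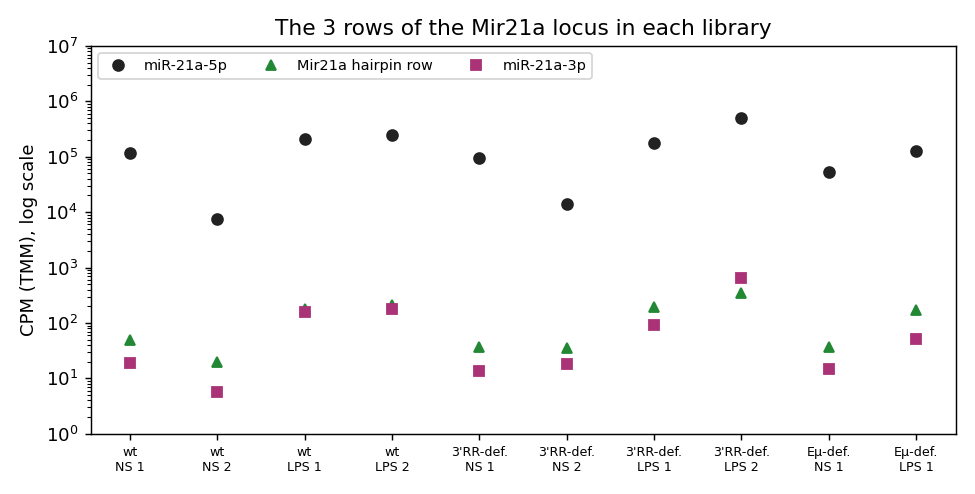
Level of miR-21a-5p (circles), the Mir21a hairpin row (triangles) and miR-21a-3p (squares) in each of the 10 libraries, as CPM after TMM scaling on a log axis. In each row the 5 LPS libraries lay above the 5 NS libraries, as in 14.2% of the 720 features tested. miR-21a-5p was lowest in the second NS libraries of wt (7539 CPM) and 3'RR-deficient cells (13978 CPM).

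The ratio of the arms asks whether both strands moved alike. It was 774 to 7219 counts of miR-21a-5p per count of miR-21a-3p, so the 5p arm prevailed in each library. In wt NS the ratio was 6266 in replicate 1 (Wilson 95% interval 5387 to 7288) and 1332 in replicate 2 (831.4 to 2133), and in wt LPS it was 1338 and 1375. In 3'RR-deficient cells it was 7219 (5942 to 8771) and 774 (602.6 to 994.4) in NS, and 1927 and 774 with LPS. In Eµ-deficient cells it was 3487 in NS and 2440 with LPS (2251 to 2645). The first NS libraries and the Eµ-deficient NS library lay above all 5 LPS libraries, and the second NS libraries lay below most of them. The ratio is one of counts. How evenly the library kit captures both strands was not measured.

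**Figure D3:**
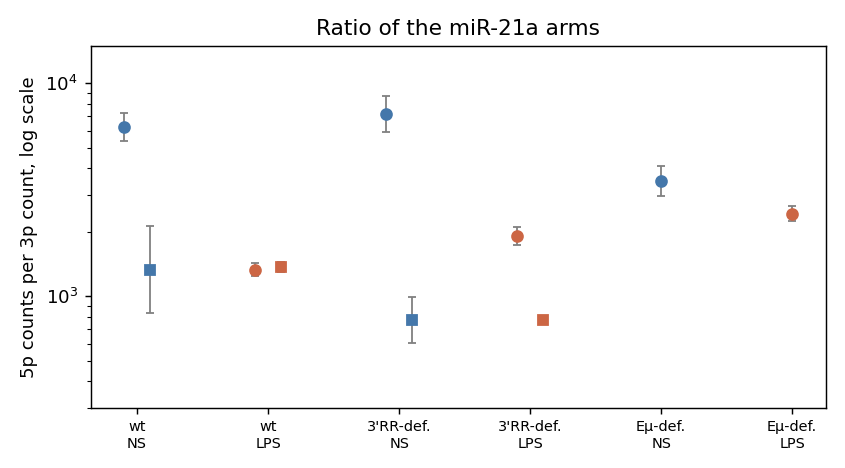
Counts of miR-21a-5p per count of miR-21a-3p in each library, on a log axis, with Wilson 95% intervals that cover counting error only. Circles are replicate 1, squares replicate 2, blue NS and orange LPS, and the ratio ran from 774 to 7219 in NS and from 774 to 2440 with LPS.

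The mean log2 ratio was 10.51 ± 0.63 (SD, n = 5) with LPS and 11.42 ± 1.41 (SD, n = 5) in NS, a difference of -0.91 with p = 0.333 in the exact permutation test. A limma fit over 136 hairpins with counts in both arms gave the same difference (SE 0.62, 95% interval -2.26 to 0.44, limma adjusted p 0.319). Without 3'RR-deficient NS replicate 1 or 2 the limma value was -0.41 or -1.40, and without wt NS replicate 1 it was -0.53, none of them called (adjusted p 0.611, 0.160 and 0.533). The fit called 7 of the 136 hairpins (5.15%), 12 without wt NS replicate 2, and 0 without either wt LPS library or the second LPS library of 3'RR-deficient mice. With the first of those or either Eµ-deficient library left out it called 1. Without both second NS libraries the difference was -1.87 and was called by limma (adjusted p 0.000649) in a fit that called 27 of 143 hairpins (18.9%). The single value gave p = 0.0556 in the exact permutation test, the smallest p that the 8 libraries left allow, so that it could not pass. The ratio of miR-21a was one of the most unequal. By mean log2 ratio (10.97) it was the third of the 136 hairpins in size, after let-7g (13.90) and miR-146a (12.92), where the median hairpin was at 0.61.

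The replicates differed in arm ratio. From replicate 1 to replicate 2 the log2 ratio of miR-21a differed by -2.27 in wt NS and -3.23 in 3'RR-deficient NS, against 0.04 for wt and -1.31 for 3'RR-deficient cells with LPS. In 3'RR-deficient NS 8.09% of the 136 hairpins had a lower value, in wt NS 18.4%, in 3'RR-deficient LPS 14.7% and in wt LPS 49.3%. Base composition moved with these differences: over 103 hairpins the replicate difference of the arm ratio correlated with the GC content of the 5p arm minus that of the 3p arm, with r = 0.50 in wt NS and r = 0.54 in 3'RR-deficient NS. In the LPS groups r was -0.13 and -0.03. For miR-21a this GC difference was -22.7 percentage points. These r values carry no p because hairpins of a library depend on each other, and the part of base composition in the arm ratio of miR-21a was not tested. For the level of miR-21a-5p, the LPS difference over both genotypes after removal of the GC trend was 1.95 (edgeR adjusted p 0.00616). That fit, on mature rows with a reference sequence, called 148 features. With the trend removed the difference was 1.94 within wt and 1.95 within 3'RR-deficient cells, neither past the threshold (edgeR adjusted p 0.107 and 0.126).

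Whether miR-21a depends on the 3'RR was asked in both conditions. Neither arm passed the edgeR test in any condition. In NS cells the log2 difference of 3'RR-deficient and wt was 0.03 for miR-21a-5p (SE 1.19, 95% interval -2.62 to 2.67) and 0.49 for miR-21a-3p (SE 0.86, -1.43 to 2.40). With LPS it was 0.50 (SE 1.19, -2.15 to 3.15) and 1.02 (SE 0.85, -0.88 to 2.92). All 4 had an edgeR adjusted p of 1. The direction in NS turned without wt NS replicate 2 for both arms (-0.82 and -0.12), and for miR-21a-5p the value ran from -1.83 without 3'RR-deficient NS replicate 1 to 2.62 without wt NS replicate 1. With LPS both arms turned without 3'RR-deficient LPS replicate 2 (-0.19 and -0.70). These edgeR fits called 0 of 720 features, and 1.25% in NS and 2.08% with LPS had an unadjusted p under 0.05. The DESeq2 test called 1 in NS and 2 with LPS.

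Over both conditions the difference was 0.26 for miR-21a-5p (SE 0.78, -1.45 to 1.97, edgeR adjusted p 0.997) and 0.76 for miR-21a-3p (SE 0.57, -0.49 to 2.01, edgeR adjusted p 0.997), in a fit that called 0.139% of features. The miR-21a-5p value was -0.30, -0.11 and -0.027 without 3'RR-deficient NS replicate 1, 3'RR-deficient LPS replicate 2 and wt NS replicate 2, and 1.27 without wt NS replicate 1. That of miR-21a-3p was 0.031 without 3'RR-deficient LPS replicate 2, and between 0.59 and 1.14 without any other single library. The 95% intervals leave room for differences of more than 2-fold in either direction for miR-21a-5p. Libraries of the same number went opposite ways for both arms. For miR-21a-5p the log2 difference, 3'RR-deficient minus wt, was -0.30 in NS and -0.28 with LPS for replicate 1, and 0.89 and 1.02 for replicate 2. For miR-21a-3p it was -0.50 and -0.81 for replicate 1, and 1.67 and 1.85 for replicate 2. Without both second NS libraries the difference over both conditions was 0.39 for miR-21a-5p (SE 0.36) and 0.69 for miR-21a-3p (SE 0.52), not called by edgeR (adjusted p 0.923 and 0.881).

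The LPS responses of both genotypes differed by 0.47 for miR-21a-5p (SE 1.68, -3.27 to 4.22) and by 0.53 for miR-21a-3p (SE 1.21, -2.16 to 3.22), 3'RR-deficient minus wt. Neither was called (edgeR adjusted p 1.00), and this test called 0 features, with 0.694% at an unadjusted p under 0.05 and 0 calls by DESeq2. Without wt NS replicate 1 the value of miR-21a-5p was -2.10, and without 3'RR-deficient NS replicate 1 it was 2.35. That of miR-21a-3p was -0.28 without wt NS replicate 1, and -1.19 and 1.40 without the 3'RR-deficient LPS replicates 2 and 1.

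The Eµ-deficient mice, with 1 library per condition, were compared with wt over both conditions in a fit of all 10 libraries. The log2 difference was -0.51 for miR-21a-5p (SE 0.92, -2.47 to 1.44, edgeR adjusted p 0.886) and -0.43 for miR-21a-3p (SE 0.80, -2.13 to 1.26, edgeR adjusted p 0.887). Both turned without wt NS replicate 1 (0.81 and 0.21) and without the Eµ-deficient LPS library (0.16 and 0.72). That fit called 16 of 988 features (1.62%), and 1 without the Eµ-deficient LPS library, 2 without either wt LPS library and 33 without wt NS replicate 1. With LPS the Eµ-deficient library had the lowest level of both arms among the 5 LPS libraries. Its miR-21a-5p level was 1.67-fold and 1.93-fold below those of the wt LPS replicates, and its miR-21a-3p level was 3.04-fold and 3.42-fold below them. The same library had the lowest microRNA share of all counts (51.4%). Of the 5 LPS libraries it had the highest summed levels of myeloid (512.3 CPM, median 111.6), erythroid and platelet (4079, median 526.4) and stromal markers (990.4, median 97.9). Of its stromal sum miR-143-3p made up 807.2 CPM, while miR-126a-3p of that list was at 13.7 CPM, its lowest level in the 10 libraries. The lymphocyte sum of that library was the highest too (154387 CPM, median 143037), of which miR-155-5p made up 100741 CPM. The sum of the other 4 lymphocyte markers was the lowest (53647 CPM, against 60539.7 to 99686 in the other LPS libraries), and miR-142a-5p made up 33148 CPM of it. The part of these markers in the low miR-21a levels of that library was not tested. In NS the Eµ-deficient library lay between the wt replicates for both arms. Of the NS libraries it had the highest sums of myeloid (5032 CPM, median 1497) and of erythroid and platelet markers (9290 CPM, median 5471). It also had the lowest microRNA share of all counts among them (60.2%). These ratios have no replicate check, since the Eµ-deficient groups hold 1 library each.

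**Figure D4:**
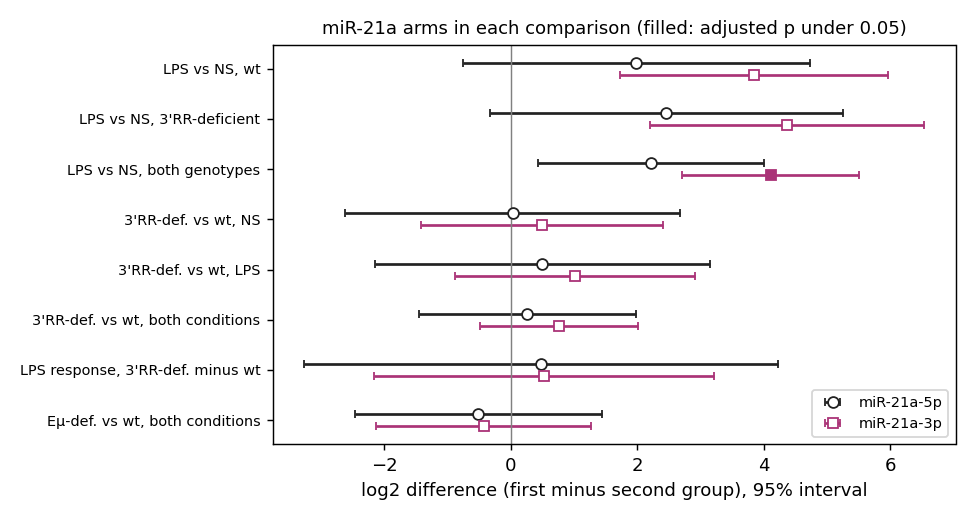
Log2 difference of miR-21a-5p (circles) and miR-21a-3p (squares) in the 8 edgeR comparisons, with 95% intervals, the first-named group minus the second. The filled symbol, miR-21a-3p with LPS over both genotypes (4.10), is the single one with an adjusted p under 0.05, and the intervals between genotypes all include 0.

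miR-21a was set beside 12 other mature microRNAs known to respond to Toll-like receptor or NF-kB signalling, all 12 of which were tested. Over both genotypes 4 rose and 2 fell with LPS, where 13.2% of all features rose and 8.61% fell, and the median of the list was 1.01 (log2), against 0.07 over all 720 features. Those that rose were miR-155-3p (5.56, SE 0.54) and miR-155-5p (2.76, SE 0.44), both cut from the Mir155hg transcript of activated B-cells, together with miR-9-5p (3.69, SE 0.62) and miR-212-3p (1.93, SE 0.58). Their edgeR adjusted p-values were 0.000184, 0.00261, 0.00346 and 0.0375. Those that fell were miR-125b-5p (-3.24, SE 0.52, edgeR adjusted p 0.00261), which is known to target Tnf and to be lowered by LPS in macrophages, and miR-511-3p (-4.74, SE 0.94, edgeR adjusted p 0.00718), which is encoded in the macrophage gene Mrc1. The known brakes of the pathway, miR-146a-5p (1.32, SE 0.54) and miR-146b-5p (0.27, SE 0.52), did not pass.

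Of the Mir155 strands the rarer had the larger difference. The levels of miR-155-3p were 4.14 to 11.003 CPM in the 5 NS libraries and 206.4 to 570.2 CPM in the LPS libraries, while those of miR-155-5p were 6216 to 8083 CPM and 27430.4 to 100741 CPM. For both strands the LPS libraries lay above the NS libraries, as in 14.2% of the 720 features. Within a single genotype 1 of the 12 was called in wt and 1 in 3'RR-deficient cells, miR-155-3p in both, where those fits called 0.694% and 0.972% of all features.

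**Figure D5:**
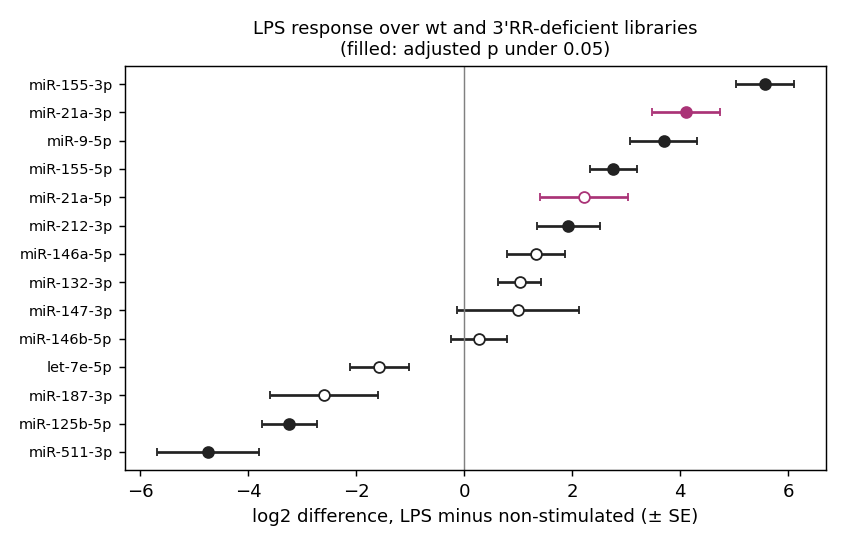
Log2 difference with LPS over the wt and 3'RR-deficient libraries (± SE) for the arms of miR-21a (purple) and 12 microRNAs of Toll-like receptor and NF-kB signalling, with adjusted p under 0.05 filled. miR-21a-3p (4.10) stood between miR-155-3p (5.56) and miR-9-5p (3.69), and miR-21a-5p (2.22, open) between miR-155-5p (2.76) and miR-212-3p (1.93).

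Since myeloid and stromal cells also express miR-21, markers of other cells were read in the same fit. The summed level of 5 microRNAs listed for lymphocytes was 89739 to 255684 CPM in NS and 87970.0 to 154387 CPM with LPS. Of the highest sum, in wt NS replicate 1, miR-142a-5p made up 177522 CPM. Whether each of the 5 is specific to lymphocytes was not tested. With LPS 1 of them rose and 2 fell, against 13.2% and 8.61% of all features (miR-155-5p up, miR-150-5p and miR-181a-5p down). Both myeloid markers, miR-223-3p and miR-223-5p, fell with LPS, and their sum was 478.9 to 5032 CPM in NS and 82.4 to 512.3 CPM with LPS. Of 4 erythroid and platelet markers 1 fell (sum 2530 to 9290 CPM in NS, 167.2 to 4079 CPM with LPS). Of 8 stromal, muscle and endothelial markers 7 were tested and 4 fell, again against 8.61% of all features (sum 214.1 to 1108 CPM in NS, 73.0 to 990.4 CPM with LPS). The liver marker miR-122-5p was at 0 to 5.62 CPM, and no list was at 0 throughout. No marker of these other cells was called higher with LPS. Their part in the result was not tested, and in bulk RNA fewer cells of a type and less RNA per cell cannot be told apart.

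Over the 10 libraries the microRNAs with levels most like those of miR-21a-5p, among 154 mature microRNAs with a mean of at least 100 CPM, were miR-7b-5p (r = 0.97), miR-18a-5p (r = 0.97), miR-7a-5p (r = 0.97) and miR-106b-5p (r = 0.96). The median r of the 154 with miR-21a-5p was 0.30. miR-18a-5p comes from the miR-17-92 cluster and miR-106b-5p from a paralogous one. The GC content of the 4 was 33.3%, 43.5%, 34.8% and 42.9% in the same order. For miR-21a-3p they were miR-34a-5p (r = 0.96), miR-182-5p (r = 0.91), miR-155-3p (r = 0.90) and miR-9-5p (r = 0.89), with a median r of 0.12. The 4 nearest to one arm and the 4 nearest to the other had no member in common. These correlations of log2 CPM share libraries, scaling and the second NS libraries, and are given as a description.

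Both related microRNAs were near the limit of detection. miR-21b had 0 to 17 counts per library and miR-21c 0 to 28, the highest of each in Eµ-deficient LPS, where miR-21a-5p had 1444391 counts. A count of 0, as both had in the second NS libraries, allows up to 3 counts. How reads that match more than one of these genes were assigned is not given in the sources used here.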

How the data were processed

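The deposited table holds raw read counts per small RNA feature, which the authors made without normalization. The processing notes of the submitters name cutadapt 1.2.1, Bowtie2 and mm10. The counting program and the handling of reads with several matches are not given in the sources used here. Per the labels, libraries were amplified in 17 PCR cycles and read with 75 nt. Depth was 3482540.0 to 18144016 counts. Wilson 95% intervals and the limit of 3 counts for a count of 0 cover counting error only, since PCR copies are not independent molecules.

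Comparisons on the microRNA class used edgeR 4.0.16 in R 4.3.3 (TMM, filterByExpr, quasi-likelihood F-test, two-sided, Benjamini-Hochberg adjustment over all features tested, threshold 0.05). The 8 wt and 3'RR-deficient libraries were fitted with a mean per group or, over both genotypes or conditions, with additive terms. The fit with Eµ-deficient mice took all 10 libraries. Per-library CPM used TMM factors of the 10 libraries. Arm ratios, log2((5p + 0.5)/(3p + 0.5)), were fitted with limma 3.58.1 over hairpins with a mean of at least 10 counts in both arms. Single values were compared by exact permutation tests (SciPy 1.17.1). The code was checked on simulated data. For the edgeR and limma fits the pass limits applied to a spread below that of these libraries, so the check does not measure power here.

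The members, lists and tests were chosen with earlier results of these data known. By rule the text names both arms, the hairpin row, related microRNAs, 12 microRNAs of Toll-like receptor or NF-kB signalling, lists of cell type markers, the microRNAs next in rank, and the 4 with the highest Pearson r with each arm. Of the 1302 mature rows 1093 were named in the RefSeq table, 1085 of them at the same position. Alternatives were other scalings, filters, classes and library sets, DESeq2 1.42.0, a GC loess trend (span 0.75), the replicate number as a block, and leaving out each library.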

Additional observations from a re-analysis of the deposited data

How the results depend on the processing

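The LPS difference of miR-21a-3p over both genotypes kept its call in all 13 alternatives (3.31 to 4.43) and without each of the 8 libraries (3.26 to 4.37). That of miR-21a-5p, not called as reported, passed in 9 of 13. It did not pass with all small RNA features in the fit (1.26, edgeR adjusted p 0.443), with mature rows alone (2.22, 0.0663), with DESeq2 size factors (2.24, 0.0645) or with all 10 libraries (2.04, 0.0513). Where it passed it was 2.34 with total count scaling, 2.13 without a filter, 2.34 with a filter of 10 CPM in 2 libraries, 2.24 with DESeq2, 1.95 with the GC trend removed, 2.06 with the GC trend removed and a replicate block, and 1.25 without both second NS libraries. Without single libraries it ranged from 1.76 to 3.23. All LPS differences stayed above 0 in every alternative run.

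Same-numbered libraries share no stated animal, batch or day, and the replicate differences correlated with r = 0.66 between the NS groups, 0.11 between the LPS groups and -0.29 to -0.06 otherwise, so the number was not taken as a pairing. With the replicate block the LPS difference was 2.96 for miR-21a-5p over both genotypes and passed (edgeR adjusted p 0.0358), and for miR-21a-3p it passed in wt (3.77) and in 3'RR-deficient cells (4.27). With the replicate block within culture condition miR-21a-5p passed at 2.98 (wt), 2.95 (3'RR-deficient) and 2.97 (both), and miR-21a-3p at 4.03 in wt and 3.998 in 3'RR-deficient cells, while the difference of responses turned to -0.022 for miR-21a-5p and -0.029 for miR-21a-3p. Swapping labels only within same-numbered pairs left the share differences at 17.4 points and 0.0171%, with an exact permutation p of 0.0625, the smallest possible. The block moved the count of calls from 5 to 27 in wt and from 7 to 11 in 3'RR-deficient cells, and within condition to 182 and 183, and from 157 to 336 over both.

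Within a genotype miR-21a-3p also passed without a filter (3.73 in wt, 4.47 in 3'RR-deficient cells), with DESeq2 (3.73, 4.38), with the GC trend removed (3.90, 4.96) and with the block added to it (3.85, 4.91). It passed as well with all 10 libraries in the fit (3.75, 4.54) and, in 3'RR-deficient cells, with the 10 CPM filter (4.27). Without both second NS libraries, which leaves 1 NS library in each of these genotypes, it was 3.23 and 4.43. DESeq2 called 103 (wt), 97 (3'RR-deficient) and 247 (both) features with LPS, and over alternatives other than the block and single left-out libraries the counts were 0 to 103, 0 to 97 and 132 to 247. Without single libraries they were 0 (without wt NS replicate 2 or LPS replicate 1) to 71 (without 3'RR-deficient NS replicate 1), 0 (without wt LPS replicate 1 or 3'RR-deficient NS replicate 2) to 62 (without 3'RR-deficient NS replicate 1), and 71 (without wt LPS replicate 2) to 163. Eµ-deficient against wt gave 12 to 156 calls and the arm ratios 1 to 27, and without single libraries 1 to 33 and 0 to 12.

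Differences between 3'RR-deficient and wt NS cells changed sign without a call. For miR-21a-5p they were -0.20 with DESeq2 size factors and with the DESeq2 test, -0.015 with total count scaling, -0.037 without a filter, -0.12 with the 10 CPM filter, -0.14 with mature rows alone, -0.19 with 10 libraries and -0.12 with the 4 libraries compared. For miR-21a-3p they were -0.029 with the GC trend removed and a replicate block, and -0.13 without both second NS libraries. The arm ratio difference passed without those (-1.87), and the share differences were 15.0 points and 0.0172%, not past the threshold, which the 8 libraries left could not reach (smallest exact permutation p 0.0556).

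Without single libraries the LPS difference ranged from 1.01 to 4.58 (miR-21a-5p, wt), 3.21 to 4.55 (miR-21a-3p, wt) and 2.53 to 5.17 (miR-21a-3p, 3'RR-deficient). The difference of responses ranged from -2.10 to 2.35 and from -1.19 to 1.40 for miR-21a-5p and miR-21a-3p. 3'RR-deficient minus wt ranged from -1.83 to 2.62 and -0.12 to 1.32 in NS, from -0.19 to 1.05 and -0.70 to 1.86 with LPS, and from -0.30 to 1.27 and 0.031 to 1.14 over both conditions. Eµ-deficient minus wt ranged from -1.04 to 0.81 and -1.90 to 0.72, and the arm ratio difference from -1.40 to -0.41. The share differences ranged from 14.3 to 19.1 points and from 0.0106% to 0.0202%, and no longer passed without either 3'RR-deficient NS library. Without either Eµ-deficient library they could not pass, since the smallest p left is 0.0556. Of 404 recomputed values 321 kept direction and side of the threshold, and the cause of the other changes was not tested. The 17 counts of miR-21a-3p in wt NS replicate 2 limit its precision there.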
